A study of Homo sapiens with 12 samples.

Results

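PSMB8, PSMB9, PSMB10, PSME1 and PSME2 are the 5 genes that encode the inducible subunits of the immunoproteasome or the chains of the PA28 activator. They were taken by symbol from a table of 59276 features, and all 5 passed the filter on low values that left 11939 features for testing. The table holds total RNA sequencing of MM1S, a human multiple myeloma cell line, in 12 libraries. There were 3 libraries labelled day 0 and 3 each of cells grown for 2, 3 or 5 days with 10 μM NGI-1, a small molecule that blocks the oligosaccharyltransferase (OST) complex, which attaches N-linked glycans to proteins. The libraries of the first time point also carry NGI-1 as their treatment label and were taken as untreated because the paper describes them so. Later days have no untreated libraries of their own, so time in culture and NGI-1 cannot be told apart. All libraries come from this 1 cell line, and nothing in the labels says that they were separate cultures, so the p-values measure the spread between these libraries, which may be technical.

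The proteasome is a barrel of stacked rings that cuts proteins into peptides. Its inner rings carry the cutting subunits β1 (PSMB6), β2 (PSMB7) and β5 (PSMB5), and in lymphoid cells and cells exposed to interferon newly made barrels can take up β1i (PSMB9, also called LMP2), β2i (PSMB10, also called MECL-1) and β5i (PSMB8, also called LMP7) in their place, which changes the peptides made and favours those that fit MHC class I molecules. PA28 is a ring of PSME1 (PA28α) and PSME2 (PA28β) that caps the barrel and opens it without the need for ubiquitin. Plasma cells and myeloma cells, which make large amounts of secreted protein, are known for immunoproteasome content and for their sensitivity to proteasome inhibitors. Interferon-γ is known to raise transcription of all 5 genes, with factors of the IRF family among those involved.

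The letters of an interferon-stimulated response element (ISRE) are shown first because 4 of the 5 genes hold them near their start and factors that bind such sites were measured in the same libraries. TAP1 is shown because its start lies close to that of PSMB9. The motif searched was GAAANNGAAA on both strands of the RefSeq promoter windows of GRCh38.p14, from 250 bases before to 50 after each gene's start. Capitals mark the match, and each run of 30 bases is written 5′ to 3′ on the strand of the gene.
PSMB8, chr6:32844032-32844061 (-): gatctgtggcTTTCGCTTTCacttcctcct
PSMB10, chr16:67936852-67936881 (-): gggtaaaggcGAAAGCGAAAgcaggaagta
PSME1, chr14:24136189-24136218 (+): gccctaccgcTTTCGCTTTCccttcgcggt
PSME2, chr14:24146619-24146648 (-): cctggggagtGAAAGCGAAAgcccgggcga
TAP1, chr6:32853813-32853842 (-): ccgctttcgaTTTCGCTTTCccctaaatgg

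Of the 5 genes, 4 held the motif in a window, against 3.57% of 35116 promoter windows in the RefSeq table. PSMB8 has 2 windows, of which the second held it. The match lay just before the start of PSMB10 and PSME2, across the start of PSMB8 and just after the start of PSME1. The single window of PSMB9 held no match. PSMB9 and TAP1, the gene of a subunit of the transporter that carries peptides into the endoplasmic reticulum, face away from each other with 488 bases between their RefSeq starts. The 2 overlapping matches in the first TAP1 window lie between those starts, 363 and 369 bases before the start of PSMB9 and so outside its window. Other searches gave the GAS motif TTCNNNGAA in PSMB8 (7.66% of all windows), the antioxidant response core TGACNNNGC in PSMB9, PSME1 and PSME2 (13.3% of all windows), and no NF-κB motif in the 5 genes (5.91% of all windows). A match of letters is a description and shows no binding.

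In the genome (GENCODE annotation, GRCh38) PSMB8 (ENSG00000204264.9, chr6:32840717-32844703, minus strand) and PSMB9 (ENSG00000240065.7, chr6:32844136-32859585, plus strand) overlap within the MHC region. PSME1 (ENSG00000092010.14, chr14:24136158-24138967, plus strand) and PSME2 (ENSG00000100911.15, chr14:24143362-24147570, minus strand) are near neighbours that point toward each other. PSMB10 (ENSG00000205220.11, chr16:67934502-67937087, minus strand) stands alone on chromosome 16. The annotated extent of each of the 5 genes overlaps another gene. PSMB8 overlaps PSMB8-AS1 and PSMB9, PSMB9 overlaps PSMB8-AS1 and TAP1, PSMB10 overlaps AC040162.1 on the same strand, PSME1 overlaps EMC9 and PSME2 overlaps RNF31. Whether the libraries and the counting used strand is not given in the sources used here, so reads of the shared stretches may have been assigned to either gene.

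A value in the table is the log2 of TPM plus 1. TPM counts a gene's transcripts, corrected for length, as a share of all transcripts in the library, so levels of different genes can be compared. The depth in counts behind each value is unknown, although the labels give more than 60 M read pairs a library, and 18164 to 20407 features a library were above 0. Calls, lower or higher, needed an adjusted p under 0.05 in limma (Benjamini-Hochberg) and a log2 change of more than 0.5 either way. The make-up of the RNA changed with time: ribosomal protein genes took 28.5% to 29.6% of TPM in the day 0 libraries and 47.8% to 49.4% at day 5, and the median log2 change of all tested features was -0.18 at day 2, -0.73 at day 3 and -0.99 at day 5. Changes are therefore also given after rescaling, in which all values of a library were divided by the same number, chosen so that the median log2 ratio to the mean of the libraries became 0 over the 5433 features whose mean was 10 TPM or more. After rescaling, the same medians were 0.013, -0.027 and -0.019. The part of the shift in make-up in the falls of TPM given here was not tested beyond this. In bulk RNA, fewer cells that express a gene and less of its RNA per cell cannot be told apart. All 8 plasma cell markers examined were present in each group, but they moved both ways: at day 5, 5 were called lower, among them SDC1 (496 to 144 TPM) and XBP1 (1547 to 366 TPM), and 2 higher, JCHAIN and TNFRSF17. Their summed level of 11846 to 13982 TPM at day 0 and 19719 to 20948 TPM at day 5 was mostly JCHAIN, with means of 9697 and 17339 TPM. Their part in the changes given here was not tested. Of the markers of other cell types, 1 of 5 for T cells, 0 of 5 for myeloid cells, 2 of 5 for epithelial cells and 0 of 5 for fibroblasts reached a mean of 1 TPM at day 5.

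At day 0 the PA28 genes stood highest, with 404 ± 11.4 TPM for PSME2 and 228 ± 5.99 TPM for PSME1 (SD, n = 3), followed by PSMB8 at 87.8 ± 3.11 TPM (SD, n = 3). PSMB10 at 33.3 ± 6.53 TPM and PSMB9 at 32.6 ± 2.02 TPM (SD, n = 3) did not differ beyond their spread. The order PSME2, PSME1, PSMB8 held in every group. At days 2, 3 and 5 every PSMB10 library lay above every PSMB9 library of the same day, where the means were 29.3 against 26.4 TPM, 24.2 against 18.5 TPM and 18.1 against 10.6 TPM. PSMB11, the subunit β5t of the thymus, was listed at 0 in all 12 libraries.

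**Figure D1:**
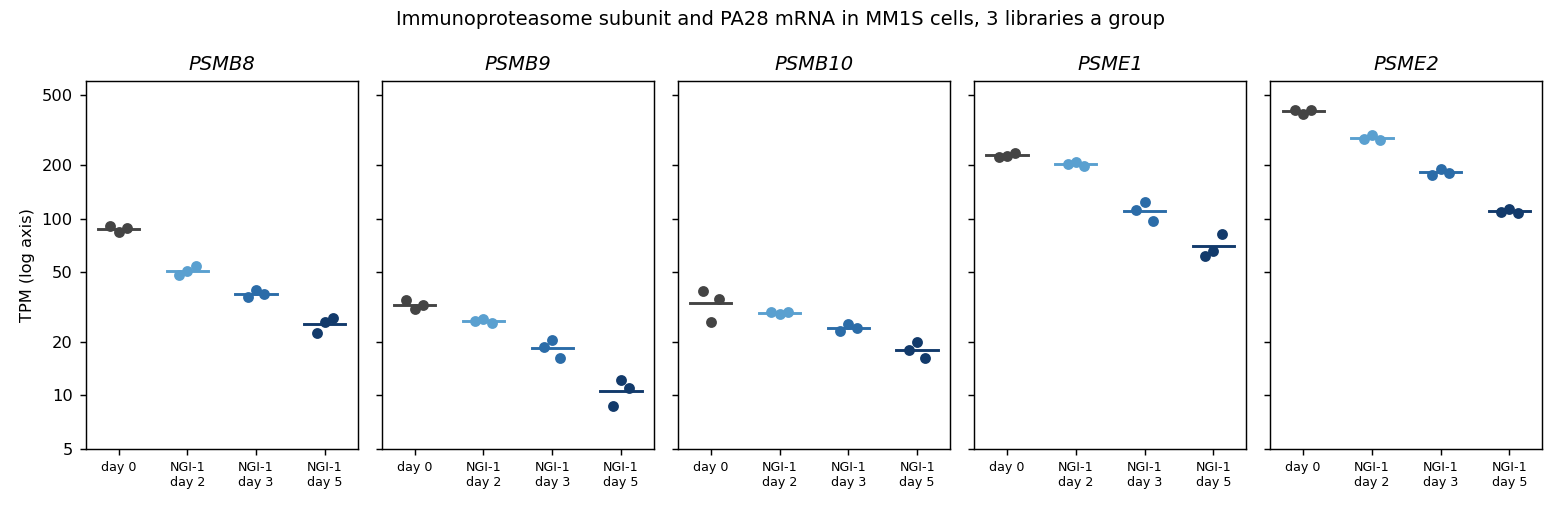
TPM of the 5 genes in each library, on a log axis, by group (day 0 and NGI-1 days 2, 3 and 5). Points are single libraries and lines are means of 3 libraries. Apart from PSMB10 at day 2, the NGI-1 libraries lie below all day 0 libraries of the same gene, and means run down from day 0 to day 5 in every panel.

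PSMB8, the chymotrypsin-like β5i subunit, was at 90.6, 84.4 and 88.4 TPM in the 3 day 0 libraries. It was at 47.8, 50.4 and 53.7 TPM at day 2, at 36.2, 39.3 and 37.6 TPM at day 3 and at 22.5, 26.0 and 27.4 TPM at day 5. No 2 of these groups overlapped, each day lying below the one before. The log2 change against day 0 was -0.78 (SE 0.0912, limma, Benjamini-Hochberg adjusted p = 1.50e-05) at day 2, -1.20 (adjusted p = 6.06e-08) at day 3 and -1.76 (adjusted p = 7.14e-10) at day 5. It was the 1 member of the 5 called lower at day 2, where 23.2% of all tested features were called lower. After rescaling the change was -0.55, -0.34 and -0.56 on the 3 days, called lower at days 2 and 5 and not at day 3.

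PSMB9, the β1i subunit, was at 34.7, 30.7 and 32.4 TPM at day 0. It was at 26.4, 27.0 and 25.7 TPM at day 2, at 18.8, 20.6 and 16.2 TPM at day 3 and at 8.75, 12.2 and 10.99 TPM at day 5. All NGI-1 libraries lay below the lowest day 0 library, and no 2 of the groups overlapped. Its log2 change was -0.30 (SE 0.122, limma, Benjamini-Hochberg adjusted p = 0.0633) at day 2 and not called, -0.79 (adjusted p = 4.45e-05) at day 3 and -1.54 (adjusted p = 4.31e-08) at day 5. After rescaling the values were -0.069, 0.045 and -0.38, and none was called. The last of these had an adjusted p of 0.00426 and reached a log2 change of -0.50, past the threshold, without the second day 5 library.

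PSMB10, the β2i subunit, changed least of the 5 on the deposited scale. It was at 38.9, 26.1 and 34.9 TPM at day 0, where the second library was the lowest, and at 29.6, 28.8 and 29.5 TPM at day 2, within the day 0 range. It was at 23.2, 25.3 and 24.1 TPM at day 3 and at 18.0, 20.1 and 16.3 TPM at day 5, below all day 0 libraries. The log2 change was -0.16 (SE 0.129, limma, Benjamini-Hochberg adjusted p = 0.335), -0.43 (adjusted p = 0.00770) and -0.83 (adjusted p = 3.65e-05), of which only the last was called. Without the second day 0 library the day 3 change was -0.59 and was called. After rescaling the sign turned on all 3 days, with 0.066, 0.41 (adjusted p = 0.0291) and 0.35 (adjusted p = 0.0518), none of them called. The day 3 value was 0.53 and called higher without the first day 0 library, and the day 5 value 0.52 and called higher without the third day 5 library. AC040162.1, the gene that overlaps PSMB10, was at 1.69 ± 0.514 TPM at day 0 and 0.155 ± 0.112 TPM at day 5 (SD, n = 3).

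PSME1, the α chain of PA28, was at 224, 225 and 235 TPM at day 0 and at 203, 210.0 and 198 TPM at day 2. These groups did not overlap, but the change of -0.16 was not called (SE 0.106, limma, Benjamini-Hochberg adjusted p = 0.228). At day 3 it was at 112, 124 and 97.4 TPM, and at day 5 at 61.8, 66.0 and 81.9 TPM. The log2 changes of -1.04 at day 3 (adjusted p = 9.31e-07) and -1.70 at day 5 (adjusted p = 4.22e-09) were called lower. After rescaling they were 0.069, -0.18 and -0.49 on the 3 days, none called. The day 5 value had an adjusted p of 1.19e-05, lay just short of the size threshold, and passed it at -0.50 without the third day 5 library.

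PSME2, the β chain of PA28, was at 412, 391 and 410 TPM at day 0. It was at 283, 297 and 279 TPM at day 2, at 177, 190 and 181 TPM at day 3 and at 109, 113 and 108 TPM at day 5. The groups did not overlap, each day lying below the one before. The log2 change was -0.49 at day 2 (SE 0.0641, limma, Benjamini-Hochberg adjusted p = 3.85e-05), short of the size threshold, and called at -0.52 without the second day 0 library or without the second day 2 library. It was -1.14 at day 3 (adjusted p = 3.33e-09) and -1.87 at day 5 (adjusted p = 1.25e-11), the largest fall among the 5. After rescaling the values were -0.26, -0.28 and -0.65, and the last was called lower (adjusted p = 2.87e-05).

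Counted over the 5 genes, 1 was called lower at day 2, 4 at day 3 and 5 at day 5, with none higher. Across all tested features 23.2%, 61.5% and 69.8% were called lower on these days and 8.03%, 7.59% and 7.73% higher, so the counts at days 3 and 5 stand among calls that most features shared. All 3 libraries lay below all 3 day 0 libraries for 4, 5 and 5 of the 5 genes, against 44.1%, 70.5% and 75.2% of tested features. The median log2 change of the 5 was -0.30, -1.04 and -1.70, beside the medians over all features of -0.18, -0.73 and -0.99. After rescaling 1, 0 and 2 of the 5 were called lower and none higher, where 11.4%, 24.2% and 26.9% of features were called lower and 12.9%, 23.9% and 27.5% higher. The rescaled median of the 5 was -0.069, -0.18 and -0.49. Setting 1 NGI-1 day against another, 2 of the 5 were called lower from day 2 to day 3, 4 from day 3 to day 5 and 5 from day 2 to day 5, against 55.5%, 13.1% and 69.8% of all tested features. The step from day 3 to day 5 was thus the 1 in which few features and most of the 5 genes were called, although PSMB8 lost its call in it without the first day 5 library (-0.48) and after rescaling none of the 5 was called.

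**Figure D2:**
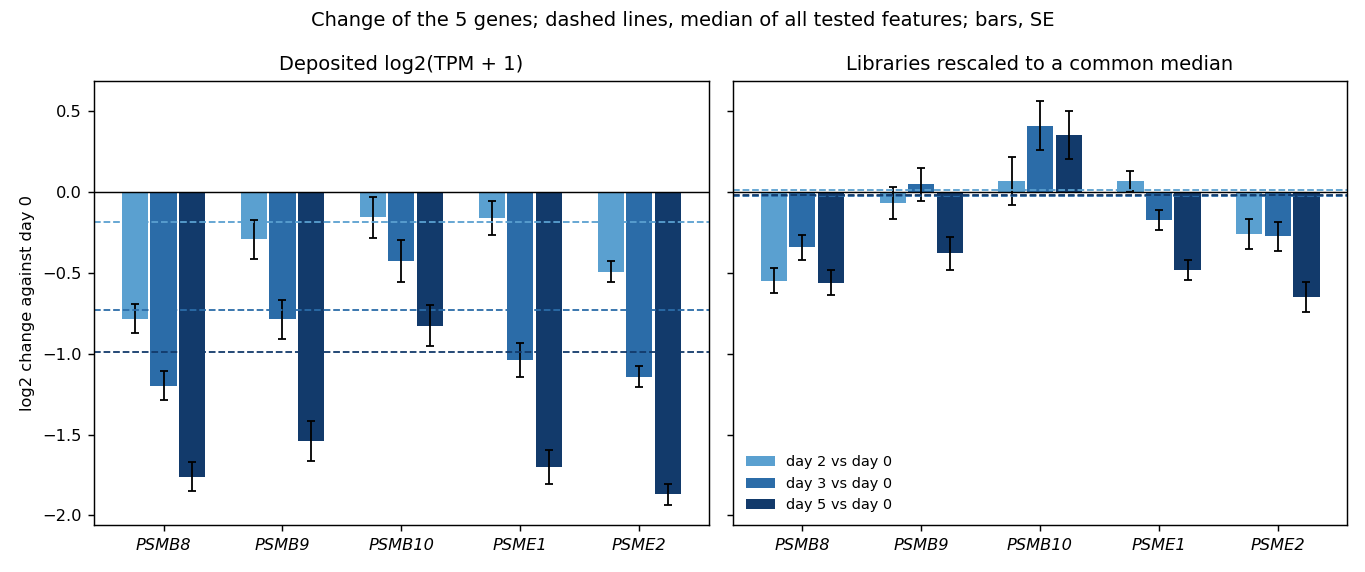
log2 change of the 5 genes against day 0 at NGI-1 days 2, 3 and 5, on the deposited scale (left) and after rescaling (right), with SE as error bars. Dashed lines give the median change of all 11939 tested features on each day. All bars point down on the left, and on the right PSMB10 lies above 0 while PSMB8 and PSME2 lie below it on each day.

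Ratios of 2 genes within a library do not move with the scaling of that library beyond the small part of the added 1, so the subunits were also compared pairwise. Each ratio is the difference of log2(TPM + 1) values, and the 9 NGI-1 libraries were set against the 3 of day 0 by an exact two-sided permutation test over 220 choices, whose smallest p is 0.00455, with adjustment over 9 ratios. An exact test of 3 libraries against 3 cannot go below p = 0.10, so single days are given as values.

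The 3 inducible subunits did not move alike against the constitutive subunits whose places they take. PSMB8 over PSMB5 went from a mean log2 ratio of 0.062 at day 0 to -0.15, -0.11 and -0.33 at days 2, 3 and 5. The difference of -0.26 passed the exact permutation test (p = 0.0136, adjusted p = 0.0153), with 8 of 9 NGI-1 libraries below all day 0 libraries. PSMB9 over PSMB6 went from -2.11 to -1.72, -1.39 and -1.61, a difference of 0.54. PSMB10 over PSMB7 went from -2.46 to -1.92, -1.82 and -1.71, a difference of 0.65. In these last ratios all 9 NGI-1 libraries lay above all day 0 libraries (exact permutation p = 0.00455 and adjusted p = 0.00682 for each).

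Of the constitutive subunits, all 3 were called lower on each day, against 23.2%, 61.5% and 69.8% of all features at days 2, 3 and 5. PSMB6 fell from 145 ± 16.1 to 34.5 ± 4.04 TPM at day 5 (log2 change -2.04), PSMB7 from 186 ± 4.88 to 61.4 ± 2.40 TPM (-1.58) and PSMB5 from 84.1 ± 5.20 to 32.1 ± 2.80 TPM (-1.37; SD, n = 3 for each). After rescaling 1 of the 3 was called at day 5, PSMB6 at -0.83. Among inducible subunits the largest fall at day 5 was that of PSMB8, whereas the counterpart of PSMB8, PSMB5, fell least of the constitutive subunits.

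Among the inducible subunits themselves, PSMB9 over PSMB8 rose by 0.37 and PSMB10 over PSMB8 by 0.78 on the log2 scale. Both lay above the day 0 range in 9 of 9 NGI-1 libraries (exact permutation p = 0.00455, adjusted p = 0.00682 for each). PSMB10 over PSMB8 had means of -1.39, -0.77, -0.62 and -0.46 at day 0 and days 2, 3 and 5.

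At day 0 the inducible subunits took 27.02% ± 0.466 of the summed TPM of the 6 catalytic subunits. Their share was 29.1% ± 0.720 after 2 days of NGI-1, 31.0% ± 0.195 after 3 days and 29.7% ± 1.24 after 5 days (SD, n = 3 each). The lowest NGI-1 library was at 28.6% and the highest day 0 library at 27.4%. Summed inducible TPM went from 154 ± 11.6 at day 0 to 106 ± 2.57, 80.4 ± 4.11 and 54.1 ± 4.55, and summed constitutive TPM from 415 ± 25.3 to 259 ± 5.46, 179 ± 7.96 and 128 ± 7.50 (SD, n = 3 each). The share therefore stayed within a few percentage points while both sums fell. No test was made of this share, which is a score over the genes.

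**Figure D3:**
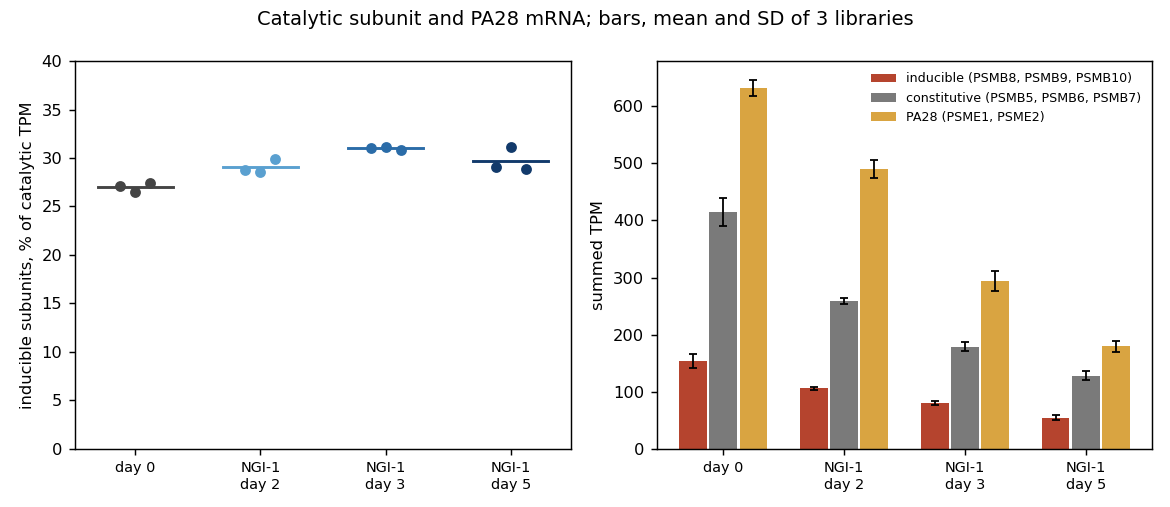
Left, the share of PSMB8, PSMB9 and PSMB10 in the TPM of the 6 catalytic subunits in each library, with means as lines. Right, summed TPM of the inducible, the constitutive and the PA28 genes as mean and SD of 3 libraries. The share lies between 26.5% and 31.2% in all libraries while the 3 sums run down from day 0 to day 5.

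The PA28 genes fell less than PSME3, which encodes PA28γ, the nuclear relative that forms a ring of its own. PSME3 was at 107 ± 10.02 TPM at day 0 and 18.4 ± 3.23 TPM at day 5 (SD, n = 3), a log2 change of -2.48 (limma, Benjamini-Hochberg adjusted p = 2.34e-09) that remained called after rescaling at -1.29. PSME1 over PSME3 was 0.78 higher in the NGI-1 libraries (exact permutation p = 0.00455, adjusted p = 0.00682), and PSME2 over PSME3 was 0.58 higher (exact permutation p = 0.0136, adjusted p = 0.0153). All 9 NGI-1 libraries lay above day 0 in both. The other activator PSME4 (PA200) and the inhibitor PSMF1 (PI31) were called lower at days 3 and 5, at -1.57 and -2.07 on day 5.

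The 2 chains of PA28 are made for 1 ring, and their ratio was compared as well. PSME1 over PSME2 had mean log2 ratios of -0.82, -0.49, -0.72 and -0.65 at day 0 and days 2, 3 and 5. The NGI-1 libraries were 0.20 higher, which did not pass (exact permutation p = 0.0909, adjusted p = 0.0909), with 7 of 9 above the day 0 range and 1 below it. Without the third day 3 library the difference was 0.23 with an adjusted p of 0.0364. At day 2 the 3 libraries lay between -0.50 and -0.48, apart from the day 0 range of -0.87 to -0.80. The sum of both chains was 632 ± 14.8 TPM at day 0 and 490 ± 15.7, 293 ± 17.8 and 180 ± 9.42 TPM after 2, 3 and 5 days of NGI-1 (SD, n = 3 each).

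The peptides that proteasomes release are carried into the endoplasmic reticulum and loaded on MHC class I molecules by products of other genes. TAP1, the other gene of the shared stretch with PSMB9, was at 32.3, 29.6 and 33.7 TPM at day 0, at 49.1, 54.3 and 52.9 TPM at day 2, at 40.9, 40.7 and 39.1 TPM at day 3 and at 26.2, 30.8 and 32.7 TPM at day 5. It was called higher at day 2 (log2 change 0.69, limma, Benjamini-Hochberg adjusted p = 7.44e-05) and not on later days, and after rescaling it was higher on all 3 days (0.91, 1.17 and 1.09). PSMB9 and TAP1 stood at nearly the same TPM at day 0, with a log2 ratio of 0.032. The ratio of PSMB9 over TAP1 was then -0.96, -1.08 and -1.41 at days 2, 3 and 5. Over the 9 NGI-1 libraries it was 1.18 lower, with every one below day 0 (difference -1.18, exact permutation p = 0.00455, adjusted p = 0.00682). The overlap of their annotated extents means that some reads could belong to either gene.

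Of 15 genes of peptide loading and MHC class I, 1, 7 and 8 were called lower on the 3 days in turn, and 6, 4 and 3 higher. Over all features the calls were 23.2%, 61.5% and 69.8% lower and 8.03%, 7.59% and 7.73% higher. Their median log2 change was 0.34, -0.19 and -0.62, and after rescaling 0, 1 and 2 were called lower and 9, 8 and 8 higher. B2M, the light chain of MHC class I, rose by the most at days 3 and 5, by 1.76 and 1.96, from 2054 ± 78.3 TPM at day 0 to 7971 ± 122 TPM at day 5 (SD, n = 3). HLA-F, a class I heavy chain, rose by 1.47 at day 2. The largest falls in this list were those of ERAP2, a peptidase that trims peptides (-0.56 at day 2 and -2.16 at day 5), and CALR, a chaperone (-1.39 at day 3). TAP2, the partner of TAP1 in the transporter, had changes near those of the 5 genes, with -0.32, -0.99 and -1.61.

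Of 13 tested regulators known to act on these genes, 0, 8 and 9 were called lower on the 3 days in turn, and 3, 2 and 2 higher. The lower calls at days 3 and 5 were near the background of 61.5% and 69.8% of all features, and 8.03%, 7.59% and 7.73% of features were called higher on the 3 days. IRF9, a factor that takes part in binding at ISRE sites, was at 15.4 TPM at day 0 and rose by 2.11, 2.23 and 2.00 on the log2 scale (limma, Benjamini-Hochberg adjusted p of 1.37e-07 or less for each). It stayed called higher after rescaling on each day. IRF1, the factor best known for PSMB9 and TAP1, had a log2 change of 0.41 at day 2, which was not called, and was called lower at days 3 and 5 (-0.58 and -0.85). After rescaling it was called higher at day 2 (0.63) and not later (0.25 and 0.32). NLRC5, the co-activator of MHC class I genes, stood at 2.13 ± 0.401 TPM at day 0 and 1.41 ± 0.458 TPM at day 5 (SD, n = 3), with no call on any day. The largest falls in the list were those of SP1 at days 2 and 3 (-0.44, not called, and -1.45) and RELA, a subunit of NF-κB, at day 5 (-1.74). In the full set of libraries PSMB8, PSMB10, PSME1 and PSME2 had no call upward on any day on either scale. With 1 library left out PSMB10 was called higher on the rescaled values given above. These genes hold the ISRE letters printed above, as does TAP1. TAP1 was called higher at day 2, and after rescaling it was higher on all 3 days. Any part of these letters or of IRF9 in the changes was not tested.

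**Figure D4:**
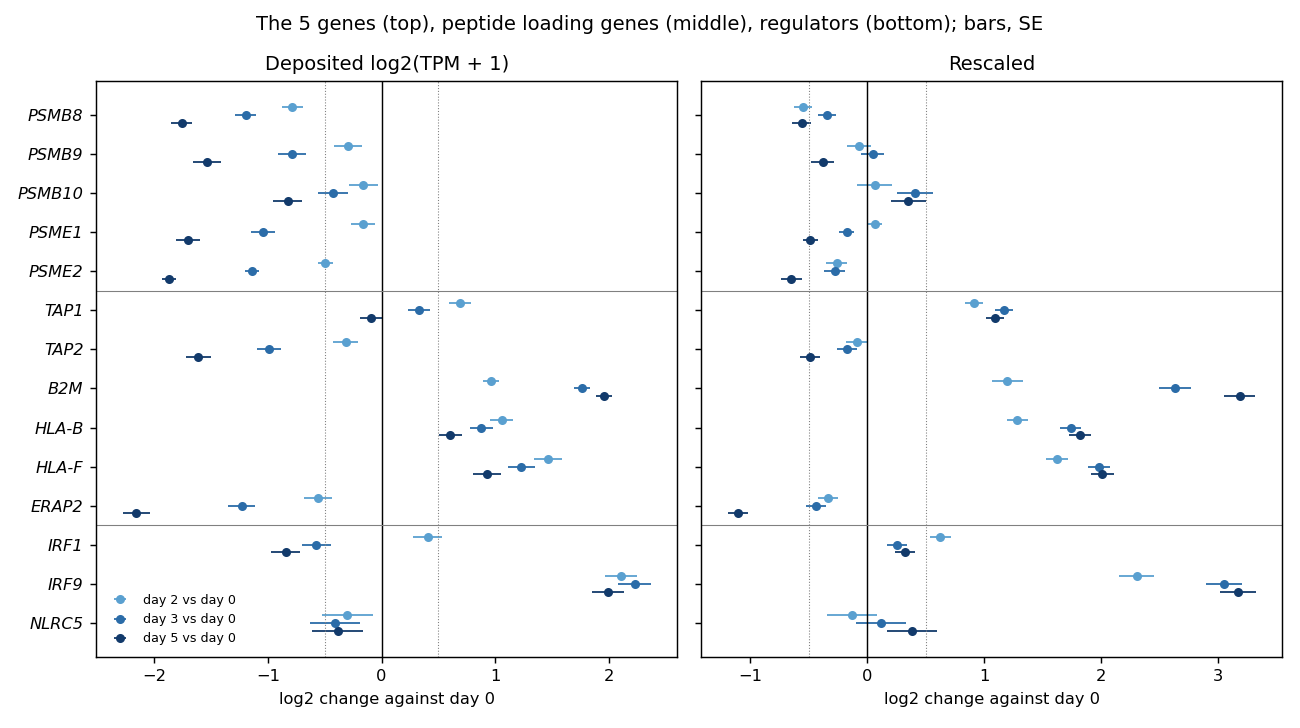
log2 change against day 0 at NGI-1 days 2, 3 and 5 for the 5 genes, 6 genes of peptide loading and MHC class I, and 3 regulators, on the deposited scale (left) and after rescaling (right). Points are fitted changes, bars are SE and dotted lines mark the size threshold of 0.5. B2M, HLA-B, HLA-F and IRF9 lie to the right of 0 on all days and in both panels, and PSMB8 and PSME2 lie to the left.

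Among overlapping and next genes, PSMB8-AS1 was at 3.98 ± 0.462 TPM at day 0 and was called lower only at day 5 (-0.53). EMC9 was called lower on each day (-0.53, -1.40 and -1.60), and RNF31 at days 3 and 5 (-0.63 and -0.91). AL669918.1, the next gene beyond PSMB8, was called lower at days 3 and 5 (-0.88 and -1.35). The medians over all tested features were -0.18, -0.73 and -0.99 at days 2, 3 and 5. After rescaling, mean log2 values at day 0 and day 5 were 1.87 and 2.26 for PSMB8-AS1 and 3.20 and 3.39 for RNF31. They were 3.29 and 2.75 for EMC9 and 1.59 and 0.898 for AL669918.1. These genes stood between 3.07 and 13.3 TPM at day 0, below the level of the 5 genes.

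Likeness of pattern was measured as Pearson's r of rescaled log2(TPM + 1) over the 12 libraries among 5433 features. The 12 libraries fall into 4 groups and share their day 0 libraries, so the values describe these libraries and carry no p. Nearest to PSMB8 were MRPS7 (r = 0.96), CCT6A (0.96) and CHORDC1 (0.96). Nearest to PSMB9 were NTHL1 (0.87), TRAPPC4 (0.84) and ME2 (0.84), and nearest to PSMB10 were BOLA2B (0.93), PRMT1 (0.93) and ATP5MC2 (0.92). For PSME1 they were SLC38A5 (0.98), ACSL5 (0.98) and DUSP5 (0.98), and for PSME2 IL32 (0.98), PPA1 (0.98) and ADM (0.97). No gene of the 5 was among the 3 features nearest to another, and r between the 5 ran from -0.57 (PSMB10 and PSME1) to 0.79 (PSMB8 and PSME2).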

How the data were processed

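Total RNA of MM1S cells was sequenced by the authors in 12 libraries (200 ng of RNA, more than 60 M read pairs each per the labels). The authors deposited log2 values of TPM plus 1, per the table's name and as checked on the values: the TPM of a library add up to 1000000 within rounding. Per the labels, FastQC, Trimmomatic, STAR, Salmon and hg38 were used. Versions and the annotation are not given in the sources used here. TPM keeps no counts, so no counting interval can be given.

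Features with at least 1 TPM in at least 3 libraries were fitted with limma 3.58.1 in R 4.3.3, with 1 mean for each of 4 groups, a mean-variance trend, two-sided moderated tests and Benjamini-Hochberg adjustment over all tested features of a contrast. Fold changes are on the log2(TPM + 1) scale, which understates those of low genes. In simulated data 200 of 11939 features, none with a low day 0 mean, were changed by 1 on the log2 scale. The fit recovered 183, 181 and 181 of them at days 2, 3 and 5 against day 0. It also called 7, 6 and 5 unchanged features. The simulation held no shift in the make-up of the RNA, so recovery under such a shift was not tested. Ratios were compared by exact permutation. Figures used matplotlib 3.10.9.

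The 5 genes, the lists and the ratios were chosen with earlier results of these data known. The genes named are the 5 members, proteasome subunits and partners given by role, IRF1, IRF9 and NLRC5, the largest fall and rise of each list on each day, overlapping and next genes, and the 3 features nearest in pattern. HLA-B, TAP2, IFNGR2, SDC1, XBP1, JCHAIN and TNFRSF17, and in the text on other proteasome genes PSMA2, PSMA4 and PSMC6, were named after their values were seen. Alternatives were rescaling, leaving out the 20 most abundant features, other filters, a pseudocount of 0.1, pairwise fits, no trend, a log2 change over 1, days 3 and 5 alone for the ratios, and leaving out each library. Amino acid sequences were not used here, and not every single-gene result of the lists is reported here.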

Additional observations from a re-analysis of the deposited data

Results flagged for a closer look

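Changes of the 5 genes between NGI-1 days are listed here because the difference between the days' effects was itself tested. It was called by limma with Benjamini-Hochberg adjustment over 11939 features. The day 0 means drop out of this difference, but the day 0 libraries stay in the fit and in its estimate of spread. PSME1 had a log2 change of -0.88 from day 2 to day 3 (adjusted p = 1.71e-05), and PSME2 of -0.65 (adjusted p = 4.28e-06). From day 3 to day 5 the change was -0.56 for PSMB8, -0.75 for PSMB9, -0.66 for PSME1 and -0.73 for PSME2 (adjusted p between 2.12e-05 and 0.00100). From day 2 to day 5 it was -0.98 for PSMB8, -1.24 for PSMB9, -0.67 for PSMB10, -1.54 for PSME1 and -1.37 for PSME2 (adjusted p of 0.000286 or less). After rescaling, 1 of these 11 changes was called, that of PSME1 from day 2 to day 5 (-0.55), and the other rescaled values lay between -0.43 and 0.29. PSMB8 lost its call from day 3 to day 5 without the first day 5 library (-0.48), and the cause was not tested. Groups of 3 libraries were too small for a test of single outlying libraries.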

How the results depend on the processing

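Rescaling changed most calls, since it removes the median fall of all features. Counts of members called lower then were 0 at day 3, 2 at day 5, 0 from day 2 to day 3, 0 from day 3 to day 5 and 1 from day 2 to day 5. The sign turned for PSMB10 (0.066 at day 2, 0.41 at day 3, 0.35 at day 5, 0.34 from day 2 to day 3 and 0.29 from day 2 to day 5), PSME1 at day 2 (0.069), PSMB9 at day 3 (0.045) and from day 2 to day 3 (0.11), and PSMB8 from day 2 to day 3 (0.21). Calls were lost at day 3 for PSMB8 (-0.34), PSME1 (-0.18) and PSME2 (-0.28), and at day 5 for PSMB9 (-0.38) and PSME1 (-0.49). With a log2 change over 1 as the threshold, the counts were 0 at day 2, 0 from day 2 to day 3, 0 from day 3 to day 5 and 3 from day 2 to day 5, and PSMB8 at day 2 (-0.78), PSMB9 at day 3 (-0.79) and PSMB10 at day 5 (-0.83) were not called. Leaving out the 20 most abundant features left 1 member called from day 2 to day 3. As a share of summed log2(TPM + 1) the inducible subunits took 44.02%, 44.5%, 44.8% and 43.6% at day 0 and days 2, 3 and 5. At day 5 this lay below day 0, whereas the share of summed TPM lay above it (29.7% against 27.02%). A sum of log2 values is not an amount of transcript.

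Leaving out each library in turn gave 1 to 2 members called lower at day 2, 4 to 5 at day 3 and 5 at day 5. The single changes at day 2 ran from -0.52 to -0.48 for PSME2, at day 3 from -0.59 to -0.31 for PSMB10, and PSME1 over PSME2 from 0.17 to 0.23. Rescaled day 2 values of PSMB10, an alternative chosen after seeing the data, ran from -0.095 without the second day 0 library to 0.19 without the first. No ratio but PSME1 over PSME2 changed its call when a library was left out. No paired analysis was possible because the labels give no replicate numbers that tie samples of different groups, so no replicate block was fitted. What depth limits could not be measured, because TPM keeps no counts.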

Other observations

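The other proteasome and receptor genes were counted against a background in which 23.2%, 61.5% and 69.8% of all tested features were called lower and 8.03%, 7.59% and 7.73% higher at days 2, 3 and 5. Of 19 subunits of the 19S regulator, the cap that takes in ubiquitinated proteins, 14, 16 and 17 were called lower on the 3 days in turn and 0, 1 and 2 higher, with median log2 changes of -0.69, -1.35 and -1.82 beside medians over all tested features of -0.18, -0.73 and -0.99. PSMD11, a lid subunit, had the largest fall on each day, from 102 ± 2.87 TPM at day 0 to 13.0 ± 4.35 TPM at day 5 (SD, n = 3; log2 change -2.93). SEM1, the smallest lid subunit, rose to 549 ± 45.02 TPM at day 5 from 304 ± 13.9 TPM at day 0 (log2 change 0.85), and the other member called higher at day 5 was PSMC6, an ATPase of the base (0.66). Of 11 other subunits of the 20S core, 8, 7 and 7 passed as lower at days 2, 3 and 5 and 0 passed as higher, although PSMA2, PSMA4 and PSMA6 lay above day 0 in all day 5 libraries (0.11, 0.20 and 0.27). PSMB2 fell most (-0.91, -2.11 and -2.47), and after rescaling 4 of the 11 were called higher at day 5, among them PSMA2 (1.33) and PSMA4 (1.42).

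Of 5 assembly factors, 3 were called lower on each day, a share near or below that of all features at days 3 and 5, and PSMG3 had the largest fall (-0.97, -1.67 and -1.81), while PSMG4 was called higher at day 5 (0.58). POMP, the chaperone that brings the inducible and the constitutive subunits into new barrels, was at 76.1 ± 5.24 TPM at day 0 and 102 ± 2.23 TPM at day 5 (SD, n = 3), a log2 change of 0.43 that was not called and was 1.64 and called higher after rescaling. Of 7 tested interferon receptors and Janus kinases, 1, 4 and 6 were called lower on the 3 days in turn, and 2, 1 and 1 higher, beside the same background shares. IFNGR1, a chain of the interferon-γ receptor, rose on each day (0.82, 0.77 and 0.66). IFNGR2, the other chain of that receptor, had means of 7.06 TPM at day 0 and 8.55, 4.48 and 3.18 TPM at days 2, 3 and 5. After rescaling, the mean log2 value of IFNGR2 was 2.51 at day 0 and 2.53 at day 5. IFNAR2, a chain of the type I interferon receptor, had the largest fall at day 5 (-2.26). The largest falls at days 2 and 3 were those of TYK2 (-0.53) and IFNAR1 (-1.37).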
